A study of Rattus norvegicus with 12 samples.

Results

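The proteasome subunits and activators were examined in the livers of 12 female iP10a rats, an inbred alcohol-preferring strain. Rows of the transcript table were taken when the gene name began with Psma, Psmb, Psmc, Psmd, Psme, Psmf or Psmg and a number and the value was above 0 in at least 1 liver, and each gene was represented by its row with the highest mean. This gave 43 genes out of 21718 transcripts above 0 in at least 1 of the 12 livers. The 43 genes had 62 listed rows, of which 61 were above 0, and 32 genes had a single row while 11 had several. Psma2, Psma8, Psmb11, Psmd10, Psmg1 and Psmg3 had no row under these names and are not analysed here. Psmc3ip matched the name but encodes a factor of meiotic recombination that is no part of the proteasome, and it is given apart.

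In the EtOH group 6 rats chose freely during 23 weeks between water and bottles of 10%, 20% and 30% ethanol by volume, and the 6 Control rats had water only. All were 38 weeks old except EtOH animal 6, which was 39 weeks old. Poly(A) RNA of each whole liver was sequenced, and levels are given as RPKM, the reads of a transcript scaled to its length and to the mapped reads of the library. The strain was bred for ethanol preference, only females were used, and the intake was chosen by each animal, which limits the groups as a model of a set dose. Whole reads recovered from the RPKM values came to between 2610238 and 4318141 per Control liver and between 3945593 and 6030028 per EtOH liver, and every member other than Psmc3ip had at least 19 reads in each liver. Hepatocyte markers were present throughout, with a summed level of 83344 to 111314 RPKM in Control livers and 91861 to 117879 RPKM in EtOH livers. In whole liver, fewer cells of a type and less RNA per cell cannot be told apart.

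The proteasome degrades proteins that carry ubiquitin chains. Its 20S core is a barrel of alpha rings (Psma), which gate the entry, and beta rings (Psmb), which hold the protease sites in Psmb5, Psmb6 and Psmb7. The 19S cap has a ring of ATPases (Psmc) that unfold substrates and non-ATPase subunits (Psmd) that bind ubiquitin and remove it. Under interferon, Psmb8, Psmb9 and Psmb10 take the places of Psmb5, Psmb6 and Psmb7 to form the immunoproteasome, and activators of the Psme family can replace the cap.

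Because the comparison of catalytic subunits below turns on 6 genes, the 120 bases before each of their gene starts are shown, from RefSeq on the rat build GRCr8. They lie at chr15:32047380-32047499 on the minus strand for Psmb5, chr10:55737768-55737887 on the plus strand for Psmb6, chr3:42827471-42827590 on the minus strand for Psmb7, chr20:4657032-4657151 on the minus strand for Psmb8, chr20:4668880-4668999 on the plus strand for Psmb9 and chr19:50743293-50743412 on the minus strand for Psmb10. Capitals mark matches, on either strand, to TGACNNNGC (the core of the antioxidant response element), CCAAT (the NF-Y box) or GAAANNGAA (the core of the interferon-stimulated response element).
Psmb5: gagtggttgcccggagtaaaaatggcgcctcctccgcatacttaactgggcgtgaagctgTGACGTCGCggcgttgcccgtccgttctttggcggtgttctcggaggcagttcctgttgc
Psmb6: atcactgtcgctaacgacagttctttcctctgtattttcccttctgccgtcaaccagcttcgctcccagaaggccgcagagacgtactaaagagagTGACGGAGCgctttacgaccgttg
Psmb7: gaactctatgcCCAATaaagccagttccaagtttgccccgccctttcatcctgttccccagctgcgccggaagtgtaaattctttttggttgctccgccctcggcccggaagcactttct
Psmb8: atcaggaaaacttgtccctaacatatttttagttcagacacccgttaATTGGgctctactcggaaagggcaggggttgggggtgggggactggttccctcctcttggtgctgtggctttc
Psmb9: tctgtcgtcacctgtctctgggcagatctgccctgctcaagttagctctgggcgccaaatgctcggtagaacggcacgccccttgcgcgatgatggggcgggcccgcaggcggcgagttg
Psmb10: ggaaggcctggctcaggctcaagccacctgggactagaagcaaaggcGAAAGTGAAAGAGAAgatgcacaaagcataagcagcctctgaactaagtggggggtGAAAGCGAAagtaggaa

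The constitutive genes Psmb5 and Psmb6 each held a TGACNNNGC match, which began 60 and 24 bases before the gene start. Psmb10 held 3 GAAANNGAA matches, of which the pair that began 73 and 67 bases before the start overlap. Psmb8 had 1 GAAANNGAA match, which began 3 bases before the start and ran across it, so it is not in capitals above. Of the 42 proteasome genes, 38 had a RefSeq promoter of 300 bases (250 before to 50 after the start), and Psma7, Psmd6, Psmd12 and Psmd14 had none. TGACNNNGC was found in 8 of the 38 (21.1%) and in 12.2% of all 27457 promoters. CCAAT was found in 18 (47.4%) against 37.7% of all, and GAAANNGAA in 9 (23.7%) against 9.50% of all. Among the 7 genes called lower below, all with a promoter, 2 held TGACNNNGC, 3 held CCAAT and 1 held GAAANNGAA. A match describes letters in this window and is not evidence of binding.

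To ask whether ethanol intake went with a difference in proteasome transcripts, EtOH and Control livers were compared with limma on quantile-normalized log2(RPKM + 0.5) over all 21718 transcripts. A gene was called when its p, adjusted after Benjamini-Hochberg over all of them, was below 0.05. Of the 43 genes, 7 were called lower in EtOH livers, against 1.29% of all transcripts, and 1 was called higher, against 1.13%. Calls were more frequent among abundant transcripts. Of the 3817 at a mean of at least 10 RPKM, 171 were called lower and 156 higher. The 7 lower genes were Psma6, Psmb5, Psmb6, Psmc1, Psmd4, Psmd5 and Psmd7, which come from the alpha ring, the beta ring, the ATPase ring and the Psmd genes, of which Psmd5 is an assembly chaperone and not a subunit of the finished cap. The row called higher carried the name Psme3 but lay away from the Psme3 locus, as described with the activators. With the row at that locus in its place, a choice made after seeing the data, 7 genes were called lower and 0 higher by limma, with 24 lower and 1 higher at an unadjusted p under 0.05.

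The log2 differences of the members leaned to one side. The difference was negative for 36 of the 43, with a median of −0.17, beside 10851 of the 21718 transcripts and a median of 0.00019 over all (log2, EtOH minus Control). In RPKM as deposited, the 6 EtOH livers all lay below the 6 Control livers for 20 of the 43 genes, against 2.43% of all transcripts, and all above for 1, against 0.677%. Such separation was more frequent among abundant transcripts, with 9.56% of the 3817 at a mean of at least 10 RPKM below. The subgroup counts of separation given further on are to be read beside these shares. Those of lower calls are to be read beside 1.29% of all transcripts and beside the larger share of abundant ones, 171 of 3817. Separation takes no account of normalization: Psma3 and Psmc6 separated with log2 differences of −0.09 and −0.10. An unadjusted p under 0.05 was reached by 23 genes in the lower and 2 in the higher direction. These are counts over a chosen list and carry no test.

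The size of the shift depended on the scaling. Without normalization between livers the median over the members was −0.33, where that of all transcripts at a mean of at least 10 RPKM was −0.14, and with median scaling the values were −0.23 and −0.05. Negative differences then numbered 40 and 39 of 43. Without normalization 22 members were called lower, against 2.98% of all transcripts. A share over the abundant transcripts alone was not taken for this setting. Means and SDs here are of RPKM as deposited while log2 differences are after quantile normalization, so a log2 difference is smaller than the means alone give for the genes called lower. Without normalization these were −0.37 for Psma6, −0.55 for Psmb5, −0.53 for Psmb6, −0.45 for Psmc1, −0.61 for Psmd4, −0.58 for Psmd5 and −0.41 for Psmd7 (log2).

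**Figure D1:**
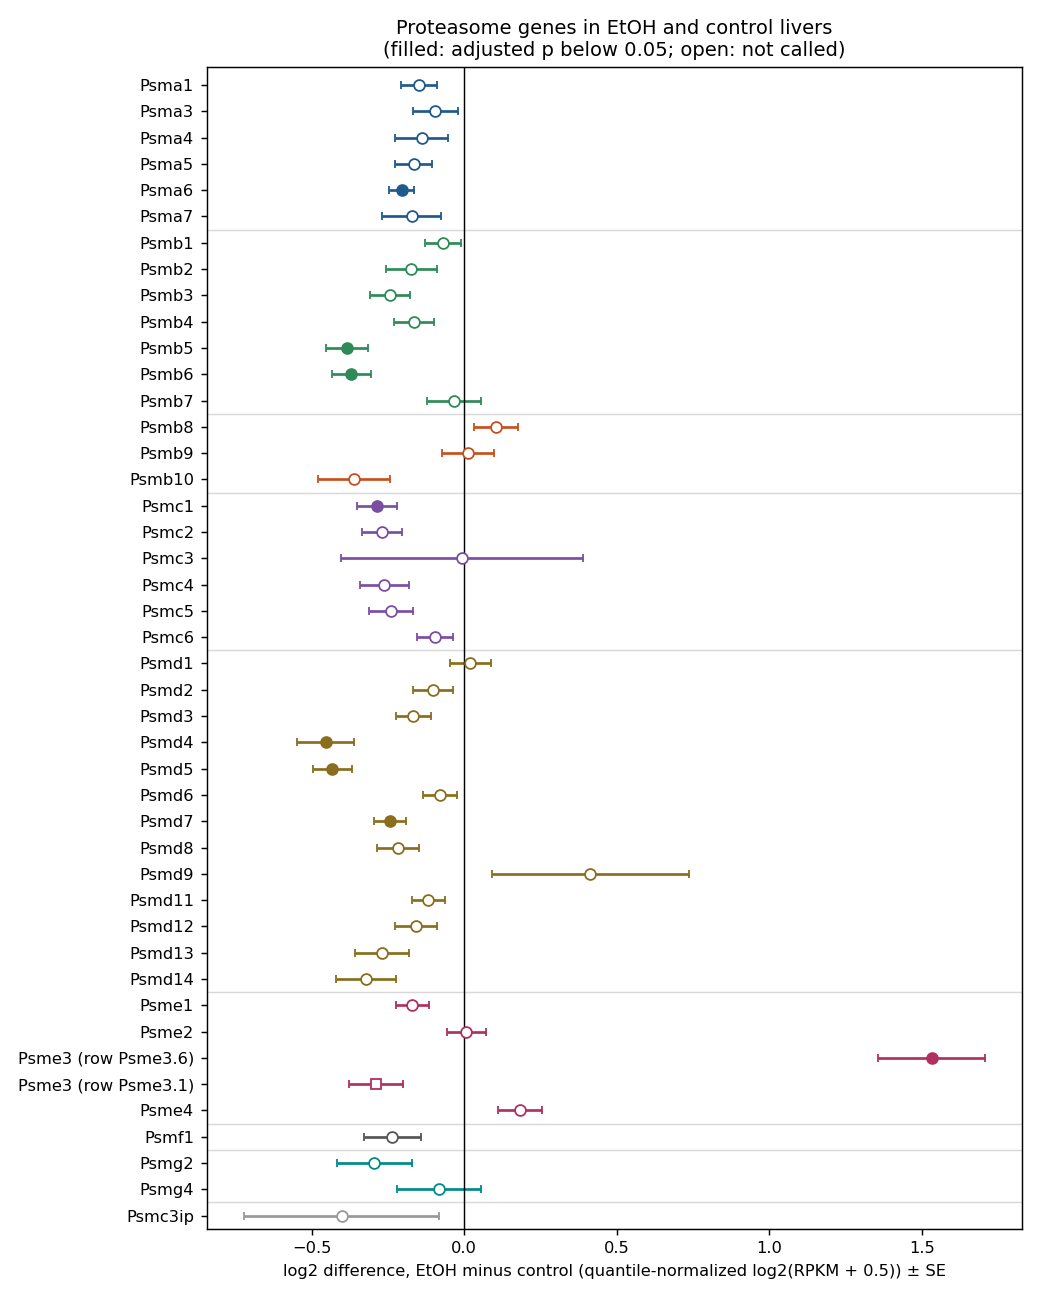
Log2 difference between EtOH and Control livers (horizontal axis, quantile-normalized log2(RPKM + 0.5), points with SE, 6 livers per group) for each of the 43 genes, coloured by subgroup, with the row Psme3.1 added as a square. Filled points passed the adjusted threshold of 0.05, and 7 of them lie left of 0 while only the row Psme3.6, at 1.53, lies right of it.

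The alpha ring genes lay close together. All 6 had a negative difference, from −0.21 to −0.09 (log2), 1 was called lower, and in 4 of them the EtOH livers lay wholly below the Control livers. Psma6, at chr6:75649844-75667401 in the file's positions (genome build not given in the sources used here), had the highest mean level of the ring and was the called one. Its RPKM was 71.5 at the lowest, 82.1 at the median and 95.8 at the highest in Control livers, and 57.4, 63.5 and 67.3 in EtOH livers. No EtOH liver reached the lowest Control liver. The level of Psma6 fell from 82.4 ± 8.24 to 63.3 ± 3.49 RPKM (SD, n = 6 each), a quantile-normalized log2 difference of −0.21 (SE 0.041, adjusted p = 0.026 by limma). The call was lost without Control animal 2, 4 or 5 or EtOH animal 2, 5 or 6, with an adjusted p of at most 0.068, and without the variance trend, at 0.079.

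Psma1, Psma3, Psma4, Psma5 and Psma7 did not pass, with adjusted p from 0.197 for Psma5 to 0.611 for Psma3. The 6 alpha genes summed to 377 ± 33.3 RPKM in Control and 298 ± 7.36 RPKM in EtOH livers.

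In the beta ring, Psmb1 to Psmb7 all had a negative difference, 2 of 7 were called lower and 4 had EtOH livers wholly below Control livers. Both called genes encode protease subunits, Psmb5 the chymotrypsin-like and Psmb6 the caspase-like site. Psmb5 (chr15:32689862-32694364 in the file) measured 59.1, 69.1 and 89.9 RPKM at the lowest, median and highest Control liver and 44.4, 47.4 and 51.8 RPKM in EtOH livers. The groups did not overlap, and the highest Control value came from animal 3. Psmb5 fell from 70.9 ± 10.7 to 47.8 ± 2.98 RPKM (SD, n = 6 each), with a quantile-normalized log2 difference of −0.38 (SE 0.068, adjusted p = 0.016 by limma). Psmb6 (chr10:57370395-57372706 in the file) measured 51.7, 55.9 and 72.7 RPKM in Control livers and 37.0, 39.8 and 41.7 RPKM in EtOH livers, again with no overlap. It fell from 57.9 ± 7.76 to 39.7 ± 1.73 RPKM, with a quantile-normalized log2 difference of −0.37 (SE 0.064, adjusted p = 0.014 by limma). Both calls held with each liver left out in turn.

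Psmb7, the trypsin-like protease subunit, did not pass. It measured 77.4, 93.8 and 120 RPKM at the lowest, median and highest Control liver and 77.1, 80.7 and 89.2 RPKM in EtOH livers, so the groups overlapped. Its log2 difference was −0.03 (SE 0.088, adjusted p = 0.88). Psmb4, a structural subunit and the most abundant of the ring, ran from 105 to 153 RPKM in Control and from 92.2 to 103 RPKM in EtOH livers. These groups did not overlap, yet the log2 difference of Psmb4 was −0.17 (SE 0.066, adjusted p = 0.24). Psmb1, Psmb2 and Psmb3 also did not pass, and Psmb3 came nearest with −0.24 (adjusted p = 0.079).

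**Figure D2:**
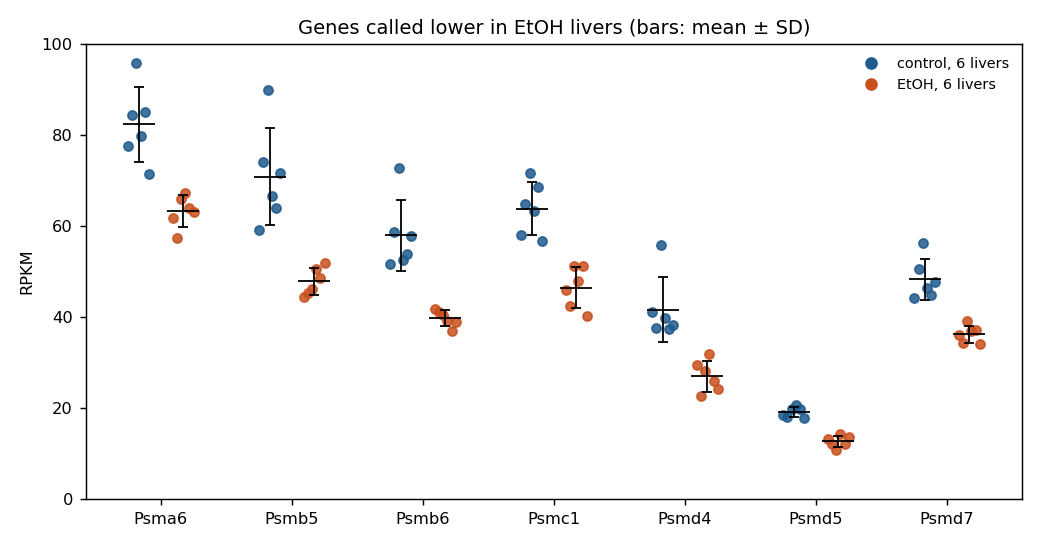
RPKM in each liver (points, 6 Control and 6 EtOH, with mean ± SD) of the 7 genes called lower in EtOH livers. For each of the 7 no EtOH liver reaches the lowest Control liver, and Psmd5, with the lowest level, runs from 10.8 to 14.2 against 17.8 to 20.7 RPKM.

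The 3 immunoproteasome subunits were not called, and in none did the groups separate. Psmb8 measured 68.3, 76.8 and 93.1 RPKM at the lowest, median and highest Control liver and 63.8, 77.3 and 89.1 RPKM in EtOH livers, and its log2 difference was 0.10 (SE 0.073, adjusted p = 0.56), which turned to −0.06 without normalization. Psmb9 measured 41.4, 50.3 and 65.1 RPKM in Control and 44.0, 45.3 and 46.6 RPKM in EtOH livers, with a log2 difference of 0.01 (SE 0.085, adjusted p = 0.95) that was −0.16 without normalization. All 6 EtOH values of Psmb9 lay inside the Control range. Psmb10 stood apart from both, at 29.3, 33.8 and 51.0 RPKM in Control and 22.9, 25.1 and 31.2 RPKM in EtOH livers. Its log2 difference was −0.36 (SE 0.12, adjusted p = 0.15), close to that of Psmb6 (−0.37) but with more spread, and only EtOH animal 4 lay above the lowest Control liver.

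The ratio of an immunoproteasome subunit to the constitutive one it replaces is taken within a liver and so does not depend on the scaling between livers. Psmb8 over Psmb5 was 1.12 ± 0.059 in Control livers, between 1.04 and 1.19, and 1.58 ± 0.12 in EtOH livers, between 1.41 and 1.76 (SD, n = 6 each). Psmb9 over Psmb6 was between 0.800 and 0.976 in Control and between 1.07 and 1.19 in EtOH livers. In these pairs every EtOH liver had the higher ratio. The denominators Psmb5 and Psmb6 are the 2 genes of the ring called lower. The numerators did not rise in RPKM, with means of 78.9 and 75.8 for Psmb8 and 51.2 and 45.3 for Psmb9 in Control and EtOH livers. How often ratios of other gene pairs separate was not counted. Psmb10 over Psmb7 ran the other way and overlapped, between 0.344 and 0.499 in Control and between 0.281 and 0.350 in EtOH livers. The difference between the changes of paired subunits was not tested, and the ratios are a description.

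**Figure D3:**
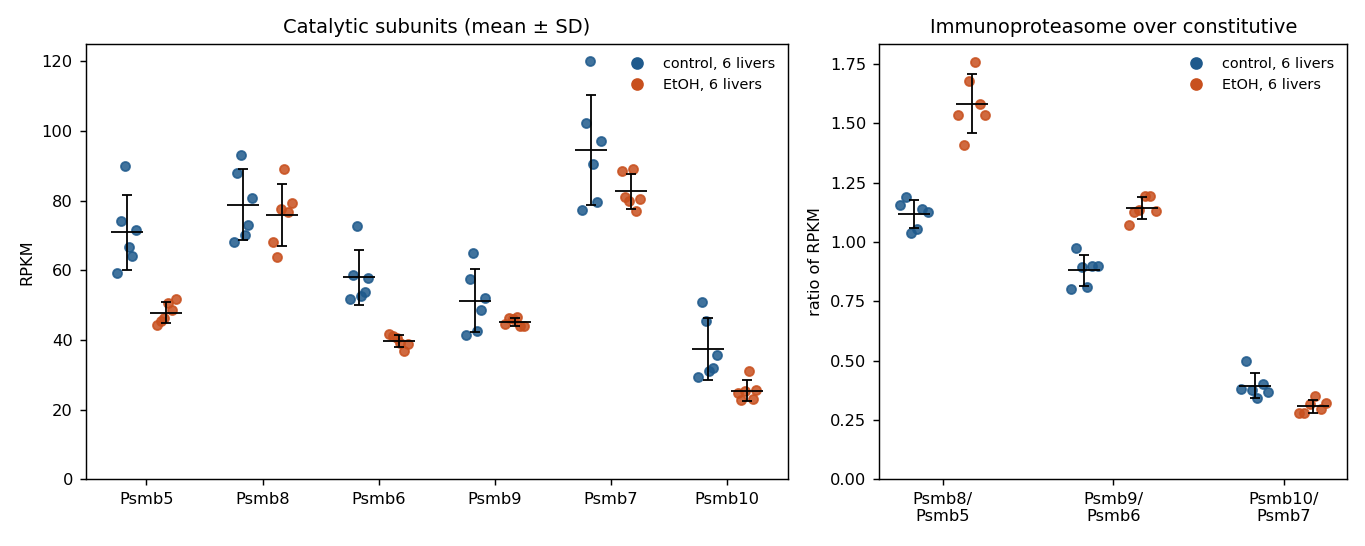
RPKM in each liver of the constitutive protease subunits Psmb5, Psmb6 and Psmb7, each beside the immunoproteasome subunit that replaces it (left), and the ratio of RPKM within each liver (right), with points for 6 Control and 6 EtOH livers and mean ± SD. The EtOH ratios lie above the Control ratios for Psmb8 over Psmb5 (1.41 to 1.76 against 1.04 to 1.19) and for Psmb9 over Psmb6, and overlap them for Psmb10 over Psmb7.

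Markers of immune cells, which express Psmb8 to Psmb10, were measured beside these values. Of 6 Kupffer cell markers 3 were called higher (Clec4f, Cd163 and Vsig4), against 1.13% of all transcripts, and none lower. The log2 difference was positive for all 6, with a median of 0.47. Only Vsig4 kept its call with each liver left out in turn. Clec4f lost it without Control animal 4 or EtOH animal 1, 3, 4 or 5 (adjusted p at most 0.054 by limma), and Cd163 in all fits but those without Control animal 6 or EtOH animal 6 (adjusted p at most 0.090). Over all 25 alternatives, with other scalings and tests among them, the call was lost in 9 for Clec4f, 16 for Cd163 and 0 for Vsig4. The summed level of the Kupffer cell markers was 108 to 169 RPKM in Control and 148 to 189 RPKM in EtOH livers. Of 8 leukocyte markers 1 was called higher, against the same 1.13%. It was the B cell gene Cd79a, which like the B cell gene Ms4a1 was listed at 0 in every Control liver. Cd79a had 9 reads in all EtOH livers and lost its call in 11 of the 12 fits that leave out a liver, all but that without EtOH animal 4 (adjusted p at most 0.083 by limma). Of the 21 alternatives that gave it a value, 13 lost the call. The leukocyte markers summed to 3.54 to 9.88 RPKM in Control and 5.47 to 10.4 RPKM in EtOH livers. Each gene of these and the other lists was read from its row of highest mean, without adding further rows. The low end of 3.54 was Control animal 3, where the row taken for Ptprc was at 0, against 2.68 to 4.87 RPKM in the other Control livers. Whether reads of Ptprc fell on other rows there was not tested. The part of immune cells in the immunoproteasome values was not tested. Of 9 genes of antigen processing and the interferon response, among them Tap1, B2m, Irf1 and Mx1, none was called by limma, with a median log2 difference of −0.02.

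The ATPase ring, which is complete here with 6 genes, had a negative difference for all 6. EtOH livers lay wholly below Control livers for 5, beside 9.56% of transcripts at a mean of at least 10 RPKM. Psmc1 (Rpt2, whose tail opens the gate of the core, at chr6:124380963-124393337 in the file) was the 1 gene called. Its lowest, median and highest levels were 56.7, 64.0 and 71.6 RPKM in Control livers and 40.3, 46.9 and 51.2 RPKM in EtOH livers, without overlap. Psmc1 fell from 63.8 ± 5.80 to 46.5 ± 4.5 RPKM (SD, n = 6 each), with a quantile-normalized log2 difference of −0.29 (SE 0.066, adjusted p = 0.045 by limma). The call of Psmc1 was near the threshold and did not survive the omission of Control animal 1, 2, 3, 4 or 5 or of EtOH animal 1, 2, 4 or 5, with an adjusted p of at most 0.10, nor the omission of the trend (0.080) or a pooled test on square roots (0.062). Psmc2, Psmc4 and Psmc5 had differences close to that of Psmc1, at −0.27, −0.26 and −0.24, with adjusted p of 0.054, 0.12 and 0.11. Psmc6 had a difference of −0.10 (adjusted p = 0.48).

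Psmc3 could not be read from its top row. Its 3 rows began at the same position of chromosome 3, and the top row, Psmc3.3, held between 12.1% and 84.1% of the gene's RPKM, depending on the liver. The sum of the 3 rows was 49.8 to 86.4 RPKM in Control and 44.8 to 53.4 RPKM in EtOH livers. Control animal 1, at 49.8, lay among the EtOH livers and the other 5 Control livers lay above all of them. The summed log2 difference of Psmc3 was −0.20 (SE 0.088, adjusted p = 0.30), where the top row alone gave −0.01 (SE 0.40). How the authors' counting split reads between the overlapping rows was not tested.

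**Figure D4:**
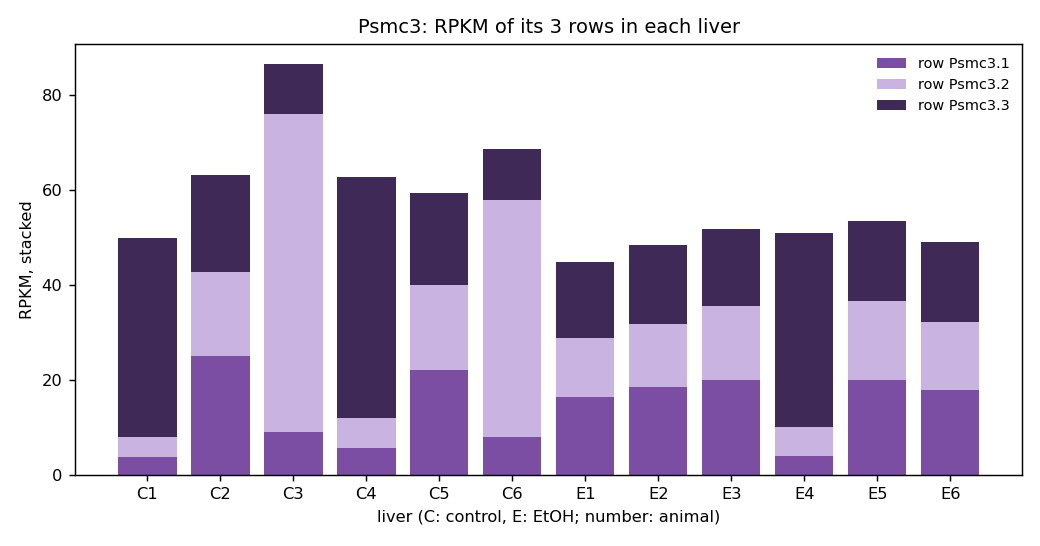
RPKM of the 3 rows of Psmc3, stacked for each liver (C, Control; E, EtOH; number, animal). The row Psmc3.3 takes most of the stack in Control animals 1 and 4 and EtOH animal 4, the row Psmc3.2 in Control animals 3 and 6, and the height of the stack runs from 44.8 to 86.4 RPKM.

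Among the 13 Psmd genes, 3 were called lower, 11 had a negative difference and 6 had EtOH livers wholly below Control livers. Psmd5 (S5b, a chaperone of cap assembly, at chr3:13861844-13879127 in the file) separated most clearly. It measured 17.8, 19.1 and 20.7 RPKM at the lowest, median and highest Control liver and 10.8, 12.7 and 14.2 RPKM in EtOH livers. Psmd5 fell from 19.1 ± 1.16 to 12.7 ± 1.24 RPKM (SD, n = 6 each), with a quantile-normalized log2 difference of −0.43 (SE 0.064, adjusted p = 0.0056 by limma). It was the member called lower with the smallest p, and the only one whose call held under every alternative run.

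Psmd4 (Rpn10, a ubiquitin receptor of the cap, at chr2:189933161-189942421 in the file) measured 37.4, 39.0 and 55.9 RPKM in Control and 22.5, 27.0 and 31.8 RPKM in EtOH livers. The top Control value came from animal 3, and the groups did not overlap. Psmd4 fell from 41.7 ± 7.11 to 27.0 ± 3.44 RPKM, a quantile-normalized log2 difference of −0.45 (SE 0.093, adjusted p = 0.028 by limma). Psmd7 (Rpn8, the partner of the deubiquitinase Psmd14 in the lid, at chr19:37452152-37459440 in the file) measured 44.1, 47.1 and 56.2 RPKM in Control and 34.1, 36.5 and 39.0 RPKM in EtOH livers. It fell from 48.3 ± 4.49 to 36.3 ± 1.87 RPKM, a quantile-normalized log2 difference of −0.24 (SE 0.052, adjusted p = 0.032 by limma). The call of Psmd4 was lost without Control animal 4 or EtOH animal 2, 3, 5 or 6 (adjusted p at most 0.070), and in a pooled test on square roots (0.056). That of Psmd7 was lost without Control animal 2, 3 or 4 or EtOH animal 1, 2, 4 or 5 (adjusted p at most 0.072), and without the trend (0.070).

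The other 10 Psmd genes did not pass. Psmd14 itself had a difference of −0.32 (SE 0.098, adjusted p = 0.11), between 22.0 and 28.6 RPKM in Control and between 14.1 and 21.9 RPKM in EtOH livers, which did not overlap. Psmd8, the most abundant of the group, lay between 53.1 and 77.7 RPKM in Control and between 43.3 and 49.4 RPKM in EtOH livers, with a difference of −0.22 (SE 0.069, adjusted p = 0.13). The base scaffolds Psmd1 and Psmd2 had differences of 0.02 and −0.10 (adjusted p = 0.91 and 0.50), and that of Psmd1 was −0.14 without normalization. Psmd9, an assembly chaperone of the cap, had a positive value of 0.41 (SE 0.32) in its top row and −0.15 (SE 0.16) when its 3 rows were added.

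Of the 4 activators, Psme1, Psme2 and Psme4 were not called, and the row taken for Psme3 was called higher. Psme1 (PA28 alpha) was the most abundant of all 43 genes and measured 155, 177 and 209 RPKM at the lowest, median and highest Control liver and 132, 142 and 151 RPKM in EtOH livers. The groups did not overlap, but with a log2 difference of −0.17 (SE 0.054, adjusted p = 0.13) Psme1 did not pass. Psme2 (PA28 beta), which joins Psme1 in the same ring, measured 28.3, 32.2 and 36.4 RPKM in Control and 25.4, 28.7 and 31.5 RPKM in EtOH livers. Its log2 difference was 0.01 (SE 0.064, adjusted p = 0.97) and turned to −0.15 without normalization. The ratio of Psme2 to Psme1 overlapped, at 0.179 ± 0.015 in Control and 0.202 ± 0.015 in EtOH livers. Psme4 (PA200) measured 28.7, 32.6 and 35.5 RPKM in Control and 29.3, 33.0 and 35.5 RPKM in EtOH livers, with a log2 difference of 0.18 (SE 0.072, adjusted p = 0.23).

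Psme3 (PA28 gamma, the nuclear activator) had 6 rows, and the name covered more than 1 place on chromosome 10. The row Psme3.1, at chr10:90343493-90351332 in the file, measured 14.2, 15.7 and 17.5 RPKM at the lowest, median and highest Control liver and 10.1, 11.7 and 14.3 RPKM in EtOH livers. Only EtOH animal 3, at 14.3, lay above the lowest Control liver. The log2 difference of Psme3.1 was −0.29 (SE 0.088, adjusted p = 0.11), negative like most of the family. The row with the highest mean, Psme3.6, at chr10:90393531-90403485, began 42198 bases after Psme3.1 ended and shared no position with it. It measured 52.1, 79.0 and 96.9 RPKM in Control and 158, 185 and 277 RPKM in EtOH livers. Psme3.6 rose from 77.6 ± 17.9 to 202 ± 43.9 RPKM (SD, n = 6 each), 2.60-fold, with a quantile-normalized log2 difference of 1.53 (SE 0.18, adjusted p = 0.0014 by limma), and this call held under every alternative run.

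Which gene the row Psme3.6 measured is not settled by the file. RefSeq lists Psme3 as a synonym of G6pc1, the catalytic subunit of glucose-6-phosphatase that releases glucose from the liver, and of no other gene. In RefSeq, G6pc1 lies between Psme3 and Rundc1, with Aoc3, Aarsd1 and Ptges3l. In the file, Psme3.6 lies between Psme3.1 and Rundc1.1, which began 57105 bases after it, and 0 rows carry the name G6pc or G6pc1. The rise of this row is therefore given for the row and not as a rise of the PA28 gamma transcript. Rows Psme3.3 and Psme3.4 spanned both places, and their highest values in any liver were 0.643 and 0.195 RPKM.

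**Figure D5:**
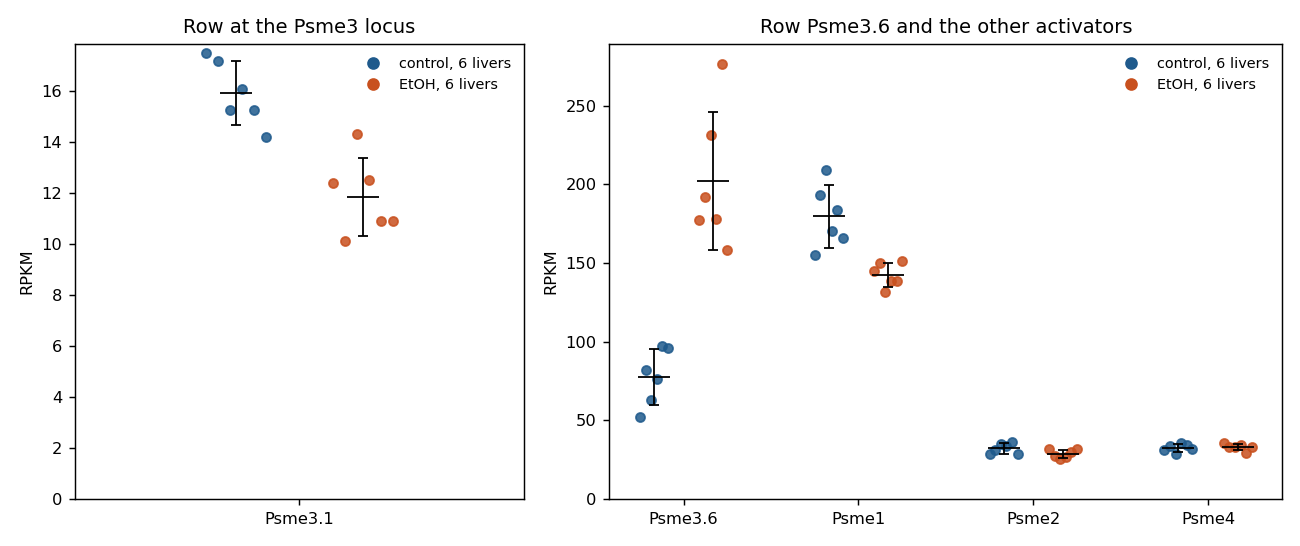
RPKM in each liver (6 Control and 6 EtOH, mean ± SD) of the row Psme3.1 (left) and of the row Psme3.6 with Psme1, Psme2 and Psme4 (right, another scale). Psme3.6 lies between 158 and 277 RPKM in EtOH livers, above all Control livers, while Psme3.1 lies between 10.1 and 14.3 RPKM, below 5 of the 6 and overlapping with the lowest one.

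The inhibitor and the assembly factors had negative differences and did not pass. Psmf1 (PI31, an inhibitor of the core in vitro) lay between 31.0 and 39.1 RPKM in Control and between 21.6 and 31.5 RPKM in EtOH livers, with −0.24 (SE 0.093, adjusted p = 0.24). Psmg2 and Psmg4, chaperones of core assembly, had −0.29 (adjusted p = 0.27) and −0.08 (adjusted p = 0.80). Psmg4, the more abundant, lay between 12.9 and 20.4 RPKM in Control and between 9.97 and 16.5 RPKM in EtOH livers. Psmc3ip had 27 reads in all Control and 28 in all EtOH livers, and its value was −0.40 (SE 0.32, adjusted p = 0.63).

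Proteins that work with the proteasome but bear other names were counted in the same fit. Of 15 such genes, 2 were called lower, against 1.29% of all transcripts, and none higher. The difference was negative for 13, with a median of −0.16 over the 15. Adrm1 (Rpn13, a ubiquitin receptor of the cap like Psmd4) measured 33.3, 40.4 and 48.7 RPKM at the lowest, median and highest Control liver and 23.2, 26.3 and 29.3 RPKM in EtOH livers. With no overlap, Adrm1 fell from 40.5 ± 6.09 to 26.7 ± 2.27 RPKM (SD, n = 6 each), a quantile-normalized log2 difference of −0.43 (SE 0.077, adjusted p = 0.017 by limma). Zfand2a (AIRAP, a stress-induced cap-binding protein) fell from 5.15 ± 0.87 to 2.90 ± 0.55 RPKM, a quantile-normalized log2 difference of −0.67 (SE 0.13, adjusted p = 0.024 by limma), and lost its call without EtOH animal 2 (adjusted p = 0.054). Over all 25 alternatives the call was lost in 1 for Adrm1 and in 2 for Zfand2a. Pomp, the maturation factor of the core, measured 115 ± 12.9 in Control and 102 ± 8.47 RPKM in EtOH livers, with a log2 difference of −0.02 (adjusted p = 0.89).

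Of 6 regulators of proteasome genes, 1 was called higher, against 1.13% of all transcripts, and none lower. Ddi2, the protease that cuts and activates the proteasome regulator Nfe2l1, measured 19.5, 26.2 and 30.9 RPKM at the lowest, median and highest Control liver and 35.3, 41.5 and 45.1 RPKM in EtOH livers. The groups did not overlap. Ddi2 rose from 26.6 ± 4.12 to 41.1 ± 3.62 RPKM (SD, n = 6 each), a quantile-normalized log2 difference of 0.78 (SE 0.11, adjusted p = 0.0045 by limma), and this call held under every alternative run. The single row taken for Nfe2l1 itself ranged from 6.48 to 29.4 RPKM among Control and from 2.07 to 27.8 RPKM among EtOH livers. Its log2 difference of 0.27 thus had an SE of 0.60 (adjusted p = 0.86 by limma). Any further rows of Nfe2l1 were not added, and a split of its reads between rows was not tested. Nfe2l2, the regulator of antioxidant genes, had −0.15 (SE 0.096, adjusted p = 0.51).

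Upstream of the proteasome, enzymes that attach ubiquitin were counted in the same fit. Of 11 genes of ubiquitin-activating and ubiquitin-conjugating enzymes none was called by limma in either direction, and 6 of the 11 had a negative difference, with a median of −0.02.

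The livers contributed unequally. Livers were ranked over the 43 genes with the row Psme3.1 in place of Psme3.6. Among Control livers, animal 3 had the highest RPKM for 26 of the 43 genes (17 after quantile normalization), while animal 1 had the lowest for 20 and animal 6 for 15. Among EtOH livers, animal 4 was highest for 16 and animal 2 lowest for 16. With Psme3.6 as the row of Psme3 again, the members' median without Control animal 3 was −0.16 and 5 were called lower. The summed RPKM of the 13 constitutive core genes was 953 ± 108 in Control and 753 ± 25.1 in EtOH livers, and that of the 19 Psmc and Psmd genes 699 ± 58.1 and 541 ± 27.9.

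Markers of other liver cells were counted as well. Of 5 hepatocyte markers 1 was called higher (Cps1, of the urea cycle), against 1.13% of all transcripts. That call was lost in 5 of the 25 alternatives. In 4 of these Control animal 2 or EtOH animal 2, 3 or 5 was left out (adjusted p at most 0.058 by limma). The most abundant of the 5, Alb and Tf, could not be called. Quantile normalization gave each the same value in every liver, and so a log2 difference of 0. As deposited, mean Alb was 70352 in Control and 79085 RPKM in EtOH livers, and mean Tf 15252 and 15074 RPKM. None of 2 endothelial, 5 stellate cell and 3 cholangiocyte markers was called. The log2 difference was nonetheless positive for all 5 stellate cell markers (median 0.62) and for the 2 endothelial ones (median 0.35). It was negative for 2 of the 3 cholangiocyte markers (median −0.03). Of the stellate cell markers Dcn came nearest to a call, with 1.24 (SE 0.30, adjusted p = 0.052 by limma). The stellate cell markers summed to 4.37 to 8.11 RPKM in Control and 7.77 to 19.2 RPKM in EtOH livers, the endothelial ones to 21.0 to 27.1 and 22.9 to 33.1 RPKM, and the cholangiocyte ones to 4.27 to 8.16 and 3.69 to 7.67 RPKM. The part of these cells in the proteasome values was not tested.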

How the data were processed

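Hepatic poly(A) RNA of 6 EtOH and 6 Control rats was sequenced as 101-nucleotide paired-end reads, with the barcoded libraries pooled in 1 lane. The authors made the deposited RPKM values with CLCbio Genomics Workbench 4.9. The sources used here give no genome build. The authors' own comparison columns (fold change, test statistic, p and FDR) were not used. Groups followed the treatment labels.

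The 43 genes, the other lists and the tests were chosen with earlier results of these data known. All 21718 transcripts above 0 in at least 1 liver, of 34391 listed, were fitted with limma 3.58.1 in R 4.3.3 on log2(RPKM + 0.5) after quantile normalization, letting the variance follow the mean. The pseudocount of 0.5 understates differences of low genes. Other steps used Python 3.11.15, numpy 2.4.6 and pandas 2.3.3. The fit was tested on simulated data. Over all transcripts, 281 were called lower and 245 higher. RPKM values of all 21718 transcripts were whole multiples of 1 read within 0.01 read, although 2052 are above 0 in 1 liver only and give a minimum. For transcripts above 0 in few livers the search for a multiple could hardly fail, so the match is no check on them. Genes with few reads carry the larger counting error. Values in the livers are given for called members, Psmb5 to Psmb10, the Psme genes and the most abundant member of each subgroup, and other genes by range and count. The values of Psma3, Psma5, Psmb3, Psmc3, Psmc2, Psmc4 to Psmc6, Psmd1, Psmd2, Psmd9, Psmd14 and Psmg2 were added after their values were seen. Promoters came from RefSeq (GRCr8). The alternatives were other pseudocounts, scalings, filters and tests, voom on recovered reads, summed rows, the animal number as a block and each liver left out. The list of ubiquitin genes is not reported here.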

Additional observations from a re-analysis of the deposited data

Results flagged for a closer look

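In 8 of 88 groups of 6 livers (44 rows of the members in Control and in EtOH livers), the highest or lowest liver stood apart from the others by a larger share of the group's range than Dixon's 95% limit allows. Chance flags about 1 in 20 such groups. In 6 of the 8 the liver was that of Control animal 3, which was highest for Psmb1 (143.2 RPKM, next 117.3), Psmb6 (72.7, next 58.78), Psmc4 (57.81, next 42.52), Psmc5 (54.27, next 42.85), Psmd4 (55.87, next 41.22) and Psmd8 (77.69, next 59.33). EtOH animal 4 was highest for Psmb10 (31.17 RPKM, next 25.73) and for the top row of Psmc3 (40.7, next 17.01), the gene whose reads were split among 3 rows. The calls of Psmb6 and Psmd4 held without Control animal 3.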

How the results depend on the processing

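Of the 7 genes called lower, Psmd5 kept its call under all 25 alternatives and Psmb5 and Psmb6 under all but the replicate block. The total of transcripts called was 322 with the pooled test on square roots, 860 at a minimum mean of 1 RPKM and 113 with the replicate block, against 526, and between 212 (without EtOH animal 2) and 656 (without Control animal 6) with a liver left out. It was 275 without Control animal 2, 285 without Control animal 4, and 252, 295 and 298 without EtOH animals 3, 4 and 5. Members called lower numbered 22 without normalization, 14 with voom, 4 without the trend and 1 with the replicate block (of 648, 448, 220 and 73 transcripts called lower in all), and between 3 and 7 with a liver left out (4 without Control animal 2, 3 without Control animal 4, EtOH animal 2 or EtOH animal 5). The number called higher was 0 with Psme3.1. The median of the members was −0.33 without normalization, −0.33 with square roots and no quantile step and −0.32 with voom, and lay between −0.19 and −0.15 with a liver left out. Over all transcripts, the split of lower and higher calls was 281 and 245, 648 and 126 without normalization, 337 and 194 with median scaling, 389 and 84 with square roots and no quantile step, and 448 and 139 with voom. No pairing by animal number was seen: correlations of same-numbered animals, on values centred within each group, ran from −0.067 to 0.032. Of the 6 Control animals, 1 correlated best with its own number. The sample titles name no pairs, and such correlations cannot exclude a pairing.

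Of 55 results for single genes, 47 kept their direction throughout and 8 did not, none of them a called gene, and the cause was not tested. Without normalization, with square roots and no quantile step, and with voom, in this order, Psmb8 was −0.055, −0.056 and −0.039, Psmb9 −0.16, −0.17 and −0.15, Psmd1 −0.14, −0.14 and −0.13, and Psme2 −0.15, −0.16 and −0.15. With median scaling Psmb9 was −0.067, Psmd1 −0.049 and Psme2 −0.064. Psmd9 was −0.15 when its rows were summed. With a liver left out, Psmb7 ran from −0.084 to 0.015, Psmb9 from −0.032 to 0.061, Psmc3 from −0.22 to 0.24, Psmd1 from −0.013 to 0.069, Psme2 from −0.021 to 0.038 and Pomp from −0.045 to 0.0063. Psmc3ip, Psmd9, Psmg2 and Psmg4 had the fewest reads. The part of depth in their values was not tested. Cd79a, at 0 in all Control livers, gave no value on the square-root scale and fell below the minimum mean of 1 RPKM.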

Other observations

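The 3 rows of Psmd9 overlap on chromosome 12, and the livers divided its RPKM among them unequally. The row Psmd9.3 held between 21.9% and 78.2% of the gene's RPKM, and was at 15.2 RPKM in EtOH animal 2 and 11.3 RPKM in EtOH animal 3, against 3.53 to 6.56 RPKM in the other 10 livers. The rows Psmd9.1 and Psmd9.2 were at 2.20 and 2.03 RPKM in EtOH animal 2 and at 2.89 and 2.00 RPKM in EtOH animal 3. Added together, the 3 rows gave 19.2 ± 2.00 RPKM in Control and 15.9 ± 3.80 RPKM in EtOH livers (SD, n = 6 each).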
